A study of Arabidopsis thaliana with 57 samples.

Results

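The transcripts described here are those of 8 receptor genes of the stomatal lineage of Arabidopsis thaliana, out of 27655 genes counted. They are TOO MANY MOUTHS (TMM, AT1G80080), the 3 receptor kinases of the ERECTA family, ERECTA (ER, AT2G26330), ERECTA-LIKE 1 (ERL1, AT5G62230) and ERECTA-LIKE 2 (ERL2, AT5G07180), and 4 SOMATIC EMBRYOGENESIS RECEPTOR KINASES, SERK1 (AT1G71830), SERK2 (AT1G34210), BAK1 (also SERK3, AT4G33430) and SERK4 (AT2G13790). The genes were chosen by their known function with earlier results of these data known, and the rule used no measured value. All 8 had enough counts to be tested in every comparison.

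The receptors work together at the plasma membrane. Small secreted peptides of the EPF family bind ERECTA family kinases, TMM associates with these kinases and modulates which peptides they answer, and SERKs serve as co-receptors. The signal passes through the kinase YDA and a MAP kinase cascade and restrains the transcription factor SPEECHLESS (SPCH), so that fewer epidermal cells enter the stomatal lineage and stomata stay apart. TMM and ERL1 are known from cells of the lineage, ER from many growing tissues, and the SERKs from brassinosteroid, immune and anther signalling as well.

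The series measured mRNA of sorted cells from 5 lines in the Col-0 background, with 57 libraries in all. Every line, the control included, carried FAMAp::LHG4-GR, a transcription activator that is made in the FAMA promoter domain and becomes active with dexamethasone (DEX), and differed in the Venus-tagged protein that it switched on. The FAMA line expressed FAMA (11 libraries), the SPCH line SPCH (12), the SRDX-FAMA line FAMA fused to the SRDX repression domain (12), the SRDX-SPCH line SPCH with the same domain (11), and the control line a nuclear-localized Venus (NLS, 11). Seedlings were 10 days old and received 30 µM DEX for 2, 3 or 4 h, true leaves were protoplasted for 2 h, and about 3000 Venus-positive cells per sample were collected by fluorescence-activated sorting. The FAMA promoter is active in guard mother cells (GMCs), guard cells (GCs) and also myrosin cells, so each library is a mixture of these. In such bulk samples fewer cells of a type and less RNA per cell cannot be told apart.

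Libraries held 7296381 to 60348384 counts (median 33317326). Levels below are CPM, normalized counts scaled to library size. The FAMA gene, read together with its transgene, was at 3535 to 7225 CPM in FAMA libraries and 144.3 to 361.1 CPM in NLS libraries, and the SPCH gene was at 8107 to 15590 CPM in SPCH libraries and 9.35 to 29.4 CPM in NLS libraries. The library labelled SRDX-FAMA 4 h replicate 2 went against its label, in that its SPCH level was 9663 CPM and its FAMA level 344.6 CPM, and its counts differed from those of SRDX-SPCH 2 h replicate 3 by little more than sampling noise (chi-square over degrees of freedom of 1.27 across 16579 genes). It stayed in the fits under its label. For members, calls of SRDX-FAMA comparisons are also given without it where stated. Calls of other genes and marker lists include it, as do levels, shares, marker sums, correlations and the fit of all 57 libraries. The FAMA 3 h replicate 3 library held 279.9 CPM of SPCH, and 1 FAMA 4 h library carried no replicate number. GC markers were present in all libraries, and none of the 9 GC genes, the 9 meristemoid and GMC genes, the 2 myrosin cell genes and the 2 phloem genes counted as markers was at 0 in any library.

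FAMA and SPCH are basic helix-loop-helix factors, a class that binds the 6-base E-box CANNTG. The 250 bases before the annotated start of TMM, ERL1 and ERL2, the members past the test in comparisons with NLS, are therefore shown in the TAIR10.1 assembly, 5′ to 3′ on the gene's strand, with any E-box in capitals. The TMM window is chr1:30129650-30129899 (minus strand), the ERL1 window chr5:24995879-24996128 (plus strand) and the ERL2 window chr5:2233588-2233837 (minus strand), each taken from the reference sequence.
TMM: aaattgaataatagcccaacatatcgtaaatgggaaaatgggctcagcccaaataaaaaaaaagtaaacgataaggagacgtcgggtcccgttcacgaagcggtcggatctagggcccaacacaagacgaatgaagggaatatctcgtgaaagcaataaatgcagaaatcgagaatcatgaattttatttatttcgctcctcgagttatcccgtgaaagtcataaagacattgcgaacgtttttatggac
ERL1: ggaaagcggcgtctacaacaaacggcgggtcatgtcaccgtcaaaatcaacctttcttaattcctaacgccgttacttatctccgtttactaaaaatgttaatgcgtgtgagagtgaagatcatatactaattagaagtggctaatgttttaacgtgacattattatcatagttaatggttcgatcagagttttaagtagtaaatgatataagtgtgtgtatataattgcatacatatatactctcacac
ERL2: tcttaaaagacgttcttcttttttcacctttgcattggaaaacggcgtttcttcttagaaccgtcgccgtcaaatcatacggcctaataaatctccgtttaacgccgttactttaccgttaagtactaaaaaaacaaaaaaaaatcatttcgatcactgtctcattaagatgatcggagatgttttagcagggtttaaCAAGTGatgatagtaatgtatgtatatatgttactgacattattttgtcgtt
The ERL2 window held 1 E-box, CAAGTG, 46 bases before the start, and the TMM and ERL1 windows held none. Of the other members, only BAK1 had an E-box (CATATG, 150 bases before its start). Across 27443 promoters of the same length 55.3% held at least 1 CANNTG, searched on both strands, and 6.49% held the G-box CACGTG, which is itself an E-box and occurred in no member's window. A missing match says only that these letters are not in the window.

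The TMM gene is a single exon of 1831 bases on chromosome 1 (30127819 to 30129649). ER lies on chromosome 2 (11208080 to 11214662), and ERL1 (24996129 to 25002439) and ERL2 (2227439 to 2233587) lie far apart on chromosome 5, each of the 3 with 27 exons. SERK1 (27018158 to 27022117) and SERK2 (12458564 to 12462905) lie on chromosome 1, BAK1 on chromosome 4 (16086311 to 16090832) and SERK4 on chromosome 2 (5741592 to 5746833), close to the fifth SERK gene, SERK5 (5753103 to 5757353). No pair of the 8 members shared an identical 50-base stretch, the length of the reads. SERK4 and SERK5 shared 495 such windows, so reads of these neighbours may be split between them and SERK4 levels are less certain. Exons of ERL1 (82 bases), SERK1 (158), SERK2 (57) and BAK1 (78) overlap a gene on the opposite strand, and whether the counting used strand is not given in the sources used here.

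Per kilobase of exon, the scale on which genes can be compared, TMM and BAK1 were the most abundant members, with means of 74.1 and 70.9 CPM per kb over the 57 libraries. SERK2 followed at 25.6, SERK4 at 10.3, ERL2 at 8.37, SERK1 at 5.82, ERL1 at 4.84 and ER at 3.07 CPM per kb. TMM mRNA was thus at a higher mean level than the mRNA of all 3 ERECTA family kinases, and BAK1 mRNA at a higher mean level than that of the other SERKs. Between single libraries BAK1 varied least (2.08-fold from the lowest to the highest) and ER most (8.46-fold), with ERL2 at 2.25-fold, SERK4 at 2.67-fold, TMM at 3.78-fold, SERK2 at 4.82-fold, SERK1 at 5.05-fold and ERL1 at 5.28-fold. BAK1 had a coefficient of variation of 10.11 to 18.7% within a line over the 3 time points, whereas that of ER was 39.7 to 67.1%.

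**Figure D1:**
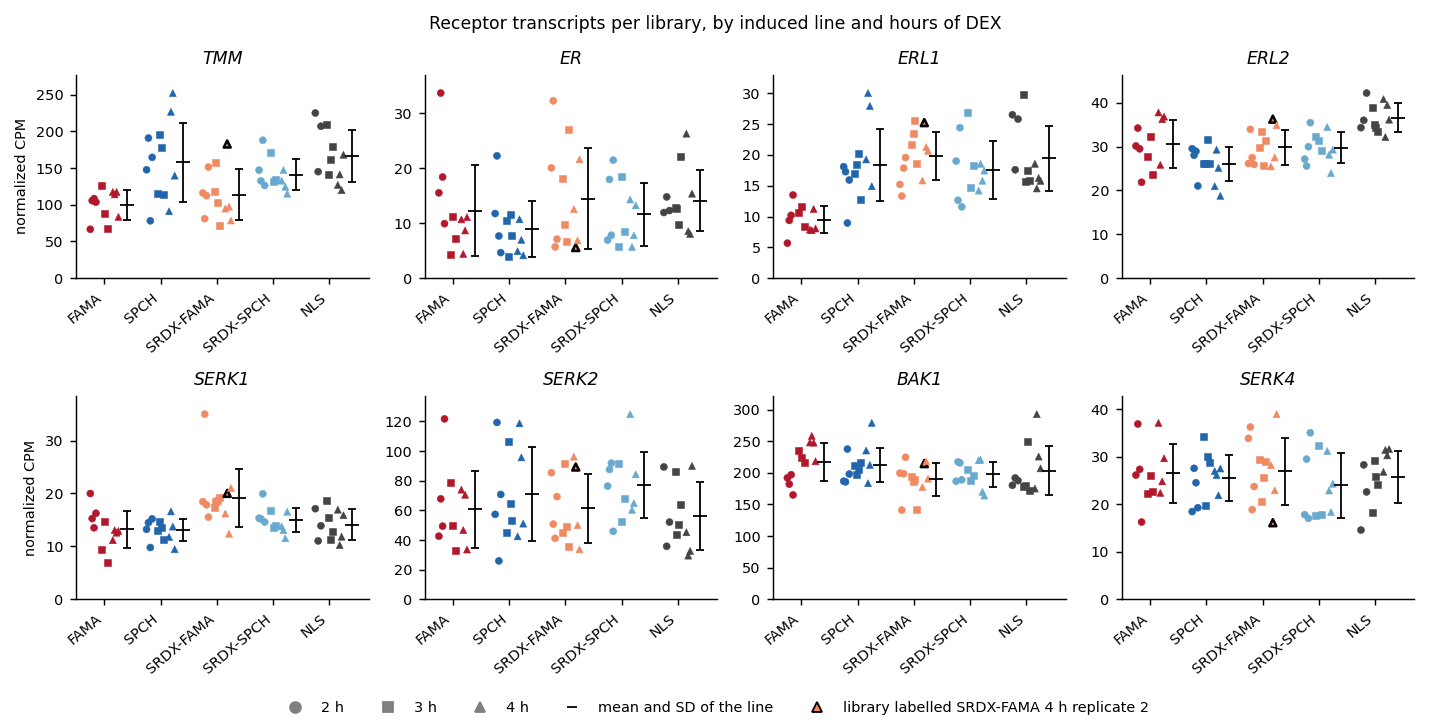
Normalized CPM of each receptor gene (vertical axis, from 0) in every library, by line (FAMA, SPCH, SRDX-FAMA, SRDX-SPCH, NLS) with the marker shape giving hours of DEX and the bar the mean ± SD. ERL1 in FAMA libraries (5.68 to 13.5 CPM) lies below every NLS library (14.6 to 29.7 CPM), and ERL2 in SPCH libraries (18.8 to 31.7 CPM) lies below every NLS library (32.2 to 42.2 CPM). The share of all genes that separate like this was not counted.

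The comparison of FAMA with NLS asked which receptors differ once FAMA is induced in its own domain. The study's authors reasoned that the NLS sorts may have taken in more weakly fluorescent cells. That would skew the NLS cell mixture relative to FAMA and SPCH libraries, and its part in the comparisons against NLS was not tested. For targets the authors used changes over time and SPCH against FAMA instead. ERL1 and TMM were lower in FAMA libraries. ERL1, a receptor of the peptide EPF1 that acts in meristemoids and GMCs, had 5.68, 9.37 and 13.5 CPM (lowest, median, highest of 11) in FAMA libraries, against 14.6, 17.4 and 29.7 CPM (11) in NLS libraries. All 11 FAMA libraries were below the lowest NLS library. How many of all genes separate in this way was not counted, here or in the other comparisons between lines. The mean was 9.48 ± 2.20 CPM with FAMA and 19.4 ± 5.28 CPM with NLS (SD), a log2 fold change of -1.03 (SE 0.14, edgeR quasi-likelihood adjusted p = 2.29e-05). Leaving out any single library gave log2 values of -1.09 to -0.95 with the call kept each time.

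TMM, which has an extracellular leucine-rich repeat domain but no kinase, had 66.7, 105.6 and 126.7 CPM (lowest, median, highest) in FAMA libraries, against 119.9, 161.6 and 225.0 CPM in NLS libraries. Of the 11 FAMA libraries, 10 were below the lowest NLS library, and the exception was FAMA 3 h replicate 1 at 126.7 CPM. The log2 fold change was -0.73 (SE 0.13, adjusted p = 0.000738). It ranged between -0.79 and -0.67 when single libraries were left out and the call was kept in all 22 of these fits.

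These were 2 of 8 members, both lower, where 7.42% of the 24366 genes tested passed, 5.47% lower and 1.95% higher. ERL2 had 21.9, 30.1 and 37.8 CPM in FAMA libraries and 32.2, 36.0 and 42.2 CPM in NLS libraries, with 6 of 11 FAMA libraries below the lowest NLS value (log2 -0.27, SE 0.09, adjusted p = 0.0605). The ERL2 call was reached without FAMA 2 h replicate 2 (adjusted p = 0.0472), FAMA 4 h replicate 1 (0.0481) or NLS 4 h replicate 2 (0.0404), and in 5 of 8 other alternatives, whose edgeR or DESeq2 adjusted p ranged from 0.0159 to 0.0677. ER did not pass (log2 -0.39, adjusted p = 0.522), and neither did SERK1 (-0.14, 0.695), SERK2 (0.10, 0.892), BAK1 (0.10, 0.599) or SERK4 (0.05, 0.898). The median over the 8 members was -0.20 and that of all genes tested 0.04.

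Within the ERECTA family, summed per kilobase, ERL1 made up 19.7 ± 5.83% of the transcripts in FAMA libraries and 28.7 ± 5.32% in NLS libraries (SD, n = 11 each). The share of ERL2 was 59.9 ± 7.85% in FAMA libraries and 53.1 ± 4.86% in NLS libraries, and that of ER was 20.4 ± 9.28% in FAMA libraries and 18.2 ± 5.88% in NLS libraries. ERL2 was thus the leading family member in both. In SPCH libraries ERL1 reached 35.8 ± 8.15% and ERL2 49.6 ± 6.47% (SD, n = 12).

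**Figure D2:**
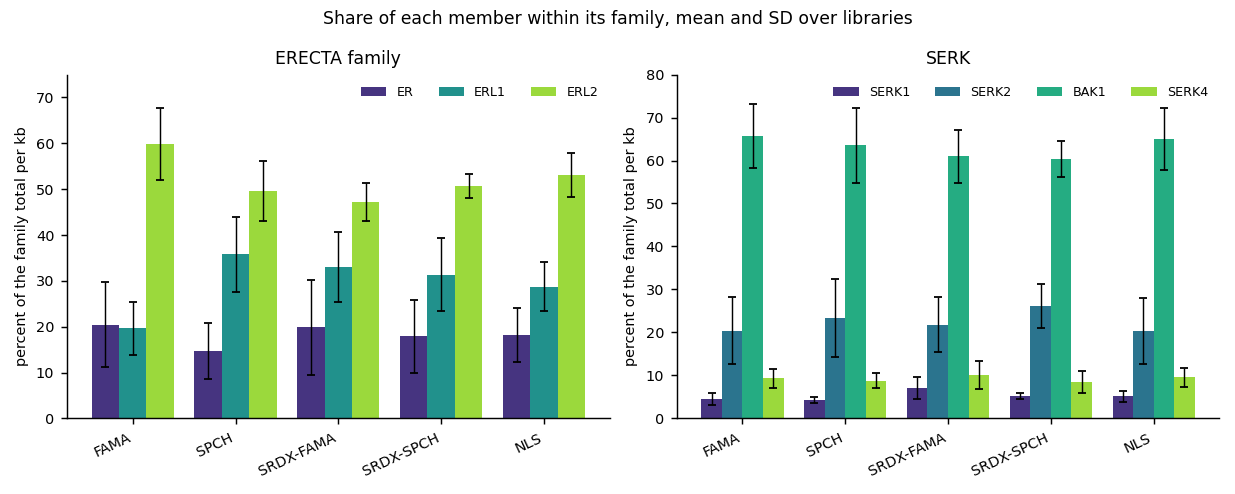
Share of each gene in the summed CPM per kb of the ERECTA family and of the 4 SERKs (percent, mean ± SD over libraries), with the lines in the order FAMA, SPCH, SRDX-FAMA, SRDX-SPCH, NLS. ERL2 holds 47.2 to 59.9% of the ERECTA family and BAK1 60.3 to 65.7% of the SERKs in every line, and ERL1 is at its lowest share in FAMA libraries (19.7%).

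Several marker lists moved with the same comparison. All 11 of 11 mitosis genes were lower in FAMA libraries, with a summed level of 31.1 to 81.5 CPM against 132.3 to 308.2 CPM in NLS libraries. Of 9 meristemoid and GMC genes 7 were lower, with sums of 96.5 to 190.4 CPM in FAMA libraries and 165.5 to 262 CPM in NLS libraries. The 9 GC genes summed to 880.4 to 1766 CPM in FAMA libraries and 795.1 to 1599 CPM in NLS libraries, with 1 of 9 higher. The part of these lists in the lower ERL1 and TMM levels was not tested.

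Among the ligands and their proteases, SDD1, a subtilisin-like protease that limits stomatal density, fell by 3.88 on the log2 scale in FAMA libraries (adjusted p = 7.6e-08), and 2 of 11 genes tested passed, both lower (the other is AT1G71866). The lineage peptides EPF1 (-0.02), EPF2 (0.12) and EPFL9 (0.26), the last of which promotes stomata, did not pass. Of 12 genes below the receptors, 3 were lower, namely MUTE, the factor that makes GMCs (-1.03, adjusted p = 0.0118), SCRM2, a partner of SPCH and FAMA (-0.54, 0.00209), and the MAP kinase kinase kinase YDA (-0.35, 0.0202). Of 11 other receptors that pair with SERKs only EMS1, an anther receptor, was lower (-0.36, 0.0451). Of 10 regulators of SERKs and ERECTA family kinases 2 were lower, among them PUB12, a ubiquitin ligase that targets FLS2 (-0.48, 0.00464).

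The comparison of SPCH with NLS asked the same for SPCH brought into the FAMA domain. Here ERL2, a kinase that overlaps in function with ER and ERL1, was the member that changed. Its levels were 18.8, 26.2 and 31.7 CPM (lowest, median, highest of 12) in SPCH libraries and 32.2, 36.0 and 42.2 CPM (11) in NLS libraries. All 12 SPCH libraries were below the lowest NLS library, though how many of all genes separate in this way was not counted. The means were 26.0 ± 3.94 CPM with SPCH and 36.6 ± 3.25 CPM with NLS (SD). The log2 fold change was -0.50 (SE 0.08, adjusted p = 0.000249) and stayed between -0.53 and -0.46 in 23 fits without 1 library each, all of which kept the call. ERL2 was 1 of 8 members, and 6.84% of the 24611 genes tested passed, 4.13% lower and 2.71% higher.

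TMM (78.2, 156.1 and 252.2 CPM in SPCH libraries) and ERL1 (8.95, 17.7 and 30.0 CPM) overlapped widely with NLS libraries, with log2 fold changes of -0.07 (SE 0.17, adjusted p = 0.928) and -0.09 (SE 0.17, 0.889). ER, the family member best known for restricting the first divisions of the lineage, had 3.98, 7.67 and 22.2 CPM in SPCH libraries and 8.05, 12.7 and 26.3 CPM in NLS libraries. Its log2 fold change of -0.72 (SE 0.26) did not pass (adjusted p = 0.112), but did so without SPCH 2 h replicate 2, the highest SPCH library (-0.88, 0.0215), and with a block of the letter that ends each library name (-0.91, 0.00142), a fit that called 3930 of 24611 genes where the fit without it called 1684. The SERKs were at -0.11 (SERK1), 0.34 (SERK2), 0.07 (BAK1) and 0.01 (SERK4), none past the test. The comparisons against NLS share the same 11 control libraries.

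Around the receptors, SDD1 was the only ligand-side gene past the test in SPCH libraries (-1.68, adjusted p = 9.78e-05), 1 of 12 tested. None of 12 genes below the receptors and none of 11 other SERK-dependent receptors passed by edgeR, with 1 and 4 of them at an unadjusted p under 0.05. Of 10 regulators 2 were higher and 1 lower, including BIR1, a BAK1-interacting kinase that restrains cell death (0.28), and PUB12 (-0.34). All 11 mitosis genes were lower here too (sum 53.0 to 150.5 CPM in SPCH libraries and 132.3 to 308.2 CPM in NLS libraries), 4 of 9 meristemoid and GMC genes were lower (97.7 to 333.2 CPM in SPCH libraries and 165.5 to 262 CPM in NLS libraries), and both myrosinase genes TGG1 and TGG2 were higher (sum 45830 to 84080 CPM in SPCH libraries and 23040 to 45340 CPM in NLS libraries). Their part in the ERL2 result was not tested.

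**Figure D3:**
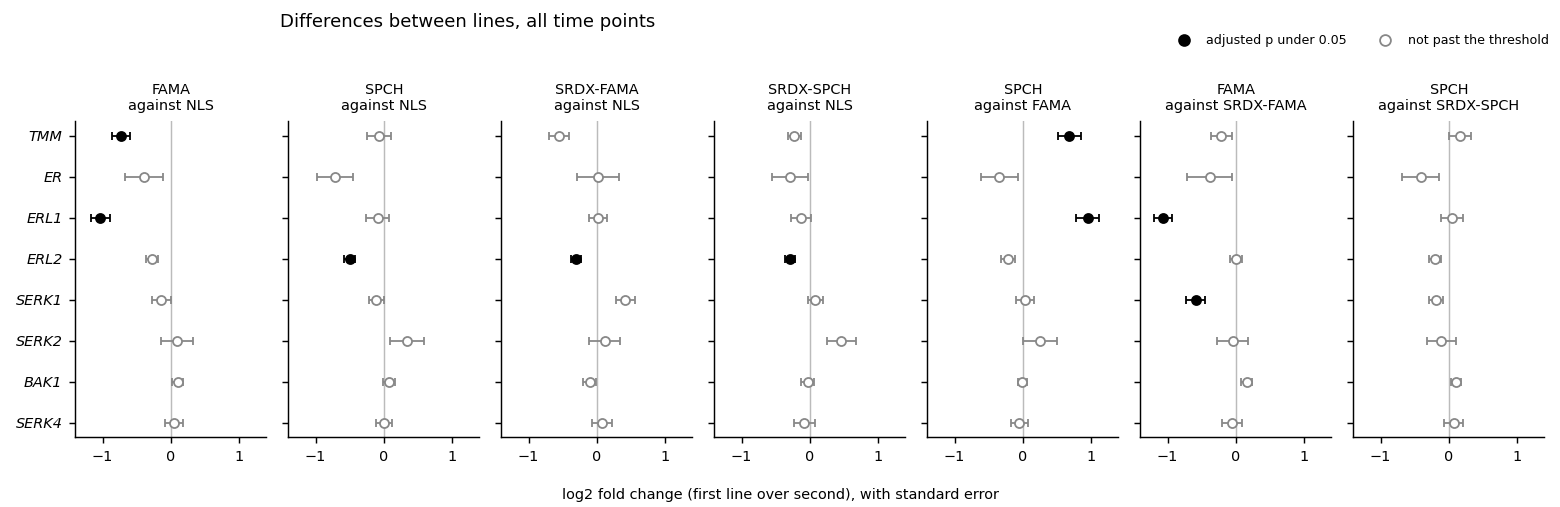
Log2 fold change ± SE (edgeR) of each receptor gene in the 7 comparisons between lines, filled where the adjusted p was under 0.05. ERL1 stands near -1 against both NLS and SRDX-FAMA with FAMA induced (-1.03 and -1.06), and ERL2 lies below 0 in all 4 comparisons against NLS (-0.50 to -0.27).

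The SRDX lines express the same factors as repressors. In SRDX-FAMA libraries ERL2 had 25.5, 28.7 and 36.3 CPM, against 32.2, 36.0 and 42.2 CPM in NLS libraries, and 8 of 12 were below the lowest NLS library. The log2 fold change was -0.30 (SE 0.08, adjusted p = 0.0393), 1 of 8 members where 2.25% of 24327 genes passed, 1.32% lower and 0.929% higher. The ERL2 call was lost without NLS 2 h replicate 1, 2 or 3, NLS 3 h replicate 1 or 2, NLS 4 h replicate 1 or 3, SRDX-FAMA 2 h replicate 1, 3 or 4, SRDX-FAMA 3 h replicate 1 or 3, or SRDX-FAMA 4 h replicate 1 or 3 (adjusted p of 0.057 to 0.0908), and it stood at -0.33 (0.0157) without the library that went against its label.

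TMM was at 72.2, 107.8 and 182.8 CPM in SRDX-FAMA libraries and 119.9, 161.6 and 225.0 CPM in NLS libraries, with 9 of 12 SRDX-FAMA libraries below the lowest NLS one. The highest of them was the library that went against its label (182.8 CPM). With it the log2 fold change was -0.55 (SE 0.15, adjusted p = 0.0525), and without it -0.66 (0.00266). The TMM test was also passed without SRDX-FAMA 3 h replicate 2 (-0.61, 0.0347) or NLS 4 h replicate 1 (-0.58, 0.0499).

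SERK1, which with SERK2 is needed for anther development, had 12.4, 18.5 and 35.0 CPM in SRDX-FAMA libraries and 10.3, 13.9 and 18.7 CPM in NLS libraries, a log2 difference of 0.42 (SE 0.14) that did not pass (adjusted p = 0.135, and 0.40 with 0.148 without the library that went against its label). ERL1 did not pass (log2 0.02, SE 0.14, adjusted p = 0.991, and -0.02 with 0.986 without that library). Of 11 mitosis genes 4 were lower with SRDX-FAMA (sum 95.3 to 227.8 CPM, against 132.3 to 308.2 CPM in NLS libraries). So were 2 of 3 pavement cell and protoderm genes (325.2 to 669.1 CPM, against 332.3 to 690.7 CPM). Of the same 3 genes, 1 was lower against NLS in FAMA libraries, 2 in SPCH libraries and 1 in SRDX-SPCH libraries. Of the 9 meristemoid and GMC genes 3 were lower (sum 134.5 to 267.1 CPM, against 165.5 to 262 CPM in NLS libraries) and 2 of 9 GC genes were lower (503.7 to 1434 CPM, against 795.1 to 1599 CPM). The part of these lists in the ERL2 and TMM values was not tested. SDD1 was lower by -1.13 (adjusted p = 0.00704) and PEPR1, a receptor of danger peptides that uses BAK1, was higher by 0.45 (0.0459). The calls of list genes include the library that went against its label and were not refitted without it.

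In SRDX-SPCH libraries ERL2 had 24.0, 29.3 and 35.5 CPM, with 8 of 11 below the lowest NLS library (32.2 CPM). The log2 fold change was -0.30 (SE 0.07, adjusted p = 0.0279), 1 of 8 members where 2.67% of 24480 genes passed, 0.968% lower and 1.70% higher. The ERL2 call was lost without NLS 2 h replicate 3, NLS 4 h replicate 3, SRDX-SPCH 2 h replicate 2, SRDX-SPCH 3 h replicate 3 or SRDX-SPCH 4 h replicate 3 (adjusted p of 0.0509 to 0.0601). TMM (-0.23, adjusted p = 0.31), ERL1 (-0.13, 0.852) and SERK2 (0.46, SE 0.21, 0.341) did not pass. None of the 11 mitosis genes was past the edgeR test here (2 had an unadjusted p under 0.05), 1 of 9 meristemoid and GMC genes was lower and 1 of 2 myrosinase genes higher. ERL2 thus passed against NLS in SPCH, SRDX-FAMA and SRDX-SPCH libraries and missed in FAMA libraries, but these 4 values (-0.50, -0.30, -0.30 and -0.27) rest on the same controls.

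Set against each other, SPCH and FAMA libraries differed in ERL1 and TMM. This comparison uses the same FAMA libraries as that with NLS. ERL1 had 8.95, 17.7 and 30.0 CPM in SPCH libraries and 5.68, 9.37 and 13.5 CPM in FAMA libraries, and 10 of 12 SPCH libraries were above the highest FAMA library (log2 0.95, SE 0.17, adjusted p = 0.00322). TMM had 78.2, 156.1 and 252.2 CPM in SPCH libraries and 66.7, 105.6 and 126.7 CPM in FAMA libraries, with 8 of 12 SPCH libraries above the highest FAMA library (0.68, SE 0.17, 0.0379). The 2 were the only members past the test, both higher, where 1.57% of 24549 genes passed, 0.855% higher and 0.713% lower.

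The ERL1 difference between SPCH and FAMA was kept in all 23 fits without 1 library, but the TMM difference in only 9 of 23. TMM missed without SPCH 2 h replicate 1, 2 or 4, SPCH 3 h replicate 2 or 3, SPCH 4 h replicate 2 or 3, FAMA 2 h replicate 1, FAMA 3 h replicate 2 or 3, or any of the 4 FAMA 4 h libraries (0.61 to 0.69, adjusted p of 0.0569 to 0.11). SDD1 (2.23, adjusted p = 0.000802), SCRM2 (0.49, 0.0163) and MUTE (1.16, 0.021) were higher with SPCH as well. So were 9 of 11 mitosis genes (sum 53.0 to 150.5 CPM in SPCH libraries and 31.1 to 81.5 CPM in FAMA libraries) and 2 of 9 meristemoid and GMC genes, and their part was not tested.

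The comparison of FAMA with SRDX-FAMA sets the factor against its repressor form. ERL1 had 5.68, 9.37 and 13.5 CPM in FAMA libraries and 13.3, 20.1 and 25.5 CPM in SRDX-FAMA libraries, and 10 of 11 FAMA libraries were below the lowest SRDX-FAMA library (log2 -1.06, SE 0.13, adjusted p = 7.45e-06). SERK1 had 6.94, 13.1 and 20 CPM in FAMA libraries and 12.4, 18.5 and 35.0 CPM in SRDX-FAMA libraries (-0.59, SE 0.14, 0.00549), and the groups overlapped. Both calls were kept in each of 23 fits without 1 library, and without the library that went against its label the values were -1.02 (1.33e-05) and -0.57 (0.0102). They were 2 of 8 members, both lower, where 13.1% of 24396 genes passed, 8.82% lower and 4.33% higher. TMM did not pass (-0.21, SE 0.15, adjusted p = 0.435, and -0.12 with 0.703 without that library), and BAK1 (0.16, 0.241) passed with at least 10 counts required in every library (0.20, 0.0468).

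SERK1 made up 4.55 ± 1.42% of the transcripts of the 4 SERKs per kilobase in FAMA libraries (SD, n = 11) and 7.07 ± 2.54% in SRDX-FAMA libraries (n = 12). Among receptors that recruit SERKs, FLS2, the receptor of bacterial flagellin, fell by 0.84 and PEPR1 fell by 0.68 on the log2 scale in FAMA libraries relative to SRDX-FAMA libraries, 2 of 11 tested. BIK1, the cytoplasmic kinase below these immune receptors, fell by 0.51, and BSK2, of a kinase family that works below brassinosteroid receptors and YDA, fell by 0.46. All 11 mitosis genes were lower with FAMA (sum 31.1 to 81.5 CPM, against 95.3 to 227.8 CPM in SRDX-FAMA libraries), as were 3 of 9 meristemoid and GMC genes (96.5 to 190.4 CPM, against 134.5 to 267.1 CPM). Higher with FAMA were 2 of 9 GC genes (880.4 to 1766 CPM, against 503.7 to 1434 CPM) and both myrosinase genes (26010 to 67340 CPM, against 12430 to 46060 CPM). The calls of list genes here also include the library that went against its label. The part of these lists in the ERL1 and SERK1 results was not tested.

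SPCH and SRDX-SPCH libraries showed no member past the test, with 0 of 8 by edgeR, 0 by DESeq2 and 1 at an unadjusted p under 0.05, in a comparison where 11.6% of 24640 genes passed, 6.19% higher and 5.38% lower. That 1 was ERL2, with 18.8, 26.2 and 31.7 CPM in SPCH libraries and 24.0, 29.3 and 35.5 CPM in SRDX-SPCH libraries (log2 -0.20, SE 0.08, adjusted p = 0.124), and it passed without SPCH 4 h replicate 2 (-0.25, 0.0484). On the ligand side 3 of 11 genes were lower with SPCH, namely SDD1 (-1.23, adjusted p = 0.00166), EPFL9 (-0.88, 0.00981) and EPF2, the peptide that restricts entry into the lineage (-0.45, 0.0199). The MAP kinase kinases MKK4 (0.36) and MKK5 (0.27), which act below YDA, were higher. Lower with SPCH were 8 of 11 mitosis genes (sum 53.0 to 150.5 CPM, against 83.6 to 320.4 CPM in SRDX-SPCH libraries). So were 4 of 9 meristemoid and GMC genes and 2 of 3 pavement cell and protoderm genes. Higher with SPCH were 1 of 9 GC genes and 1 of 2 myrosinase genes. The part of these lists in the member values was not tested.

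One fit of all 57 libraries gave the order of the lines for each member. Of 25301 genes, 1.05% passed for FAMA against SPCH, 14.4% against SRDX-FAMA, 13.2% against SRDX-SPCH and 7.58% against NLS. For SPCH 17.6% passed against SRDX-FAMA, and for SRDX-FAMA 3.81% against NLS. For ERL1 the FAMA line was lowest and differed from SPCH (-0.93, adjusted p = 0.000112), SRDX-FAMA (-1.05, 7.5e-07), SRDX-SPCH (-0.89, 2.44e-05) and NLS (-1.04, 1.01e-06), while no pair of the other 4 lines passed the test. For TMM the ascending order of the means was FAMA (99.96 CPM), SRDX-FAMA (113.8), SRDX-SPCH (140.9), SPCH (157.9) and NLS (165.9). No neighbours in this order passed the test, but FAMA was below SRDX-SPCH (-0.51, 0.0293), SPCH (-0.66, 0.0196) and NLS (-0.75, 0.00138), and SRDX-FAMA was below SPCH and NLS.

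For SERK1 the SRDX-FAMA line (mean 19.2 CPM) was above FAMA (13.3), SPCH (13.1) and NLS (14.1) in the same fit, with differences of SRDX-FAMA from NLS of 0.44 (adjusted p = 0.0364), of FAMA from SRDX-FAMA of -0.58 (0.000883) and of SPCH from SRDX-FAMA of -0.54 (0.00107). For ERL2 the NLS line was highest (36.6 CPM) and the SPCH line lowest (26.0 CPM). ER, SERK2, BAK1 and SERK4 did not pass the test between any pair of lines in this fit. For ER the estimates were wide, with -0.73 for SPCH against SRDX-FAMA (SE 0.30, edgeR adjusted p = 0.0882). SPCH against NLS gave -0.69 for ER (SE 0.31, edgeR adjusted p = 0.2).

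Time after DEX was compared within each line. No member passed between 4 h and 2 h in any of the 5 lines by edgeR, where none of the genes tested passed in 4 lines and 0.00420% in SRDX-SPCH libraries. At an unadjusted p under 0.05 there were 2 members in FAMA, 1 in SPCH, 2 in NLS and 0 in the SRDX lines, and DESeq2 called 1 in FAMA libraries, where it called 4.27% of 23598 genes, and none in the others. That gene was BAK1, with 192.0, 182.1, 197.0 and 165.0 CPM at 2 h, 234.9, 223.5 and 216.6 CPM at 3 h and 248.0, 258.4, 247.7 and 218.3 CPM at 4 h in FAMA libraries. Each BAK1 value at 4 h was above every value at 2 h. With so few libraries per hour such separation can arise by chance, and its share over all genes was not counted. The log2 fold change was 0.41 (SE 0.11, edgeR adjusted p = 0.119), and 0.41 with an adjusted p of 0.0022 by DESeq2. In NLS libraries BAK1 had 180.3, 191.8 and 187.7 CPM at 2 h and 175.1, 292.8, 225.7 and 207.1 CPM at 4 h, which overlapped.

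SERK1 in FAMA libraries separated the other way, with 20, 15.3, 13.5 and 16.3 CPM at 2 h and 11.2, 13.1, 12.6 and 12.9 CPM at 4 h, and did not pass (log2 -0.38, adjusted p = 0.446). ER in FAMA libraries had 15.5, 33.6, 18.4 and 9.91 CPM at 2 h and 10.7, 4.40, 8.68 and 11.1 CPM at 4 h (log2 -1.15, SE 0.39, adjusted p = 0.205). For ERL1 no change with time passed. In SPCH libraries it had 18.1, 17.3, 8.95 and 15.9 CPM at 2 h and 19.3, 30.0, 27.9 and 14.9 CPM at 4 h (0.61, adjusted p = 0.634), and in NLS libraries 26.5, 17.6 and 25.8 CPM at 2 h and 18.6, 14.6, 16.3 and 15.8 CPM at 4 h (-0.54, 0.931). The difference between these 2 changes was 1.13 (SE 0.36, edgeR adjusted p = 1). None of the 24 interaction terms tested for the members (8 genes and 3 pairs of lines) passed by edgeR or DESeq2, and 4 had an unadjusted edgeR p under 0.05, namely ERL1 between SPCH and NLS and between SPCH and FAMA, and TMM and ER between FAMA and NLS.

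**Figure D4:**
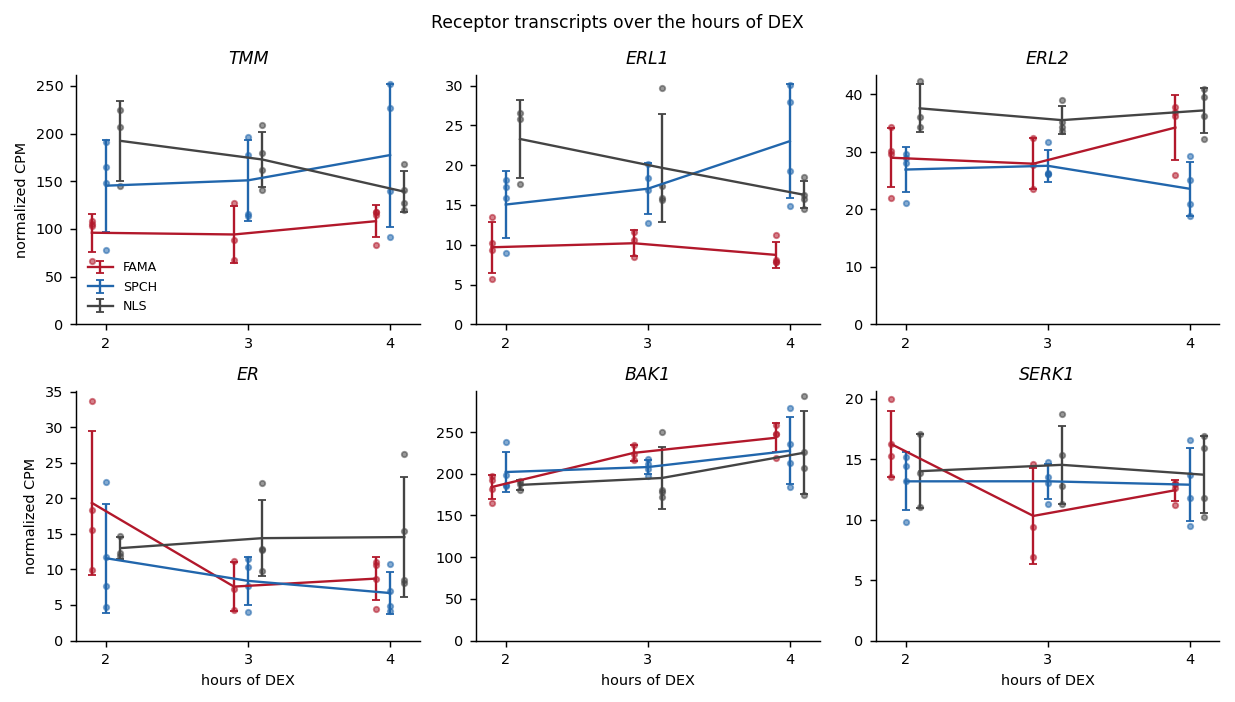
Normalized CPM (vertical axis, from 0) of TMM, ERL1, ERL2, ER, BAK1 and SERK1 at 2, 3 and 4 h of DEX in FAMA, SPCH and NLS libraries, with points for libraries and lines for the mean ± SD of 3 or 4 libraries. BAK1 in FAMA libraries lies at 165.0 to 197.0 CPM at 2 h and 218.3 to 258.4 CPM at 4 h, and ERL1 in FAMA libraries stays low at each hour.

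Across the 57 libraries the receptors followed different sets of genes, which is given as a description because these libraries share lines, sorts and depth. ERL1 ran most closely with the summed meristemoid and GMC genes among 8 lists (Pearson r of log2 CPM 0.845, and 0.772 after subtracting the mean of each line and time point), and with the mitosis genes (0.793 and 0.653). TMM had its highest r with the same meristemoid and GMC list (0.717 and 0.825), and with the GC list it had 0.557 and 0.716. Lists were summed as CPM, so their most abundant genes weigh most. In the meristemoid and GMC list HDG2 had line medians of 91.3 to 154.8 CPM, and the whole list 137.6 to 209.5 CPM. The r values with this list thus reflect HDG2 more than the other genes. SERK2 had its highest r with the mature GC genes (0.843 and 0.93). Its values were also high with the pavement cell and protoderm genes (0.728 and 0.897) and the meristemoid and GMC genes (0.546 and 0.768). ER followed the sum of the phloem genes SUC2, a sucrose transporter, and APL, a phloem identity factor (0.873 and 0.854). SERK4 had its highest r with this list too (0.593 and 0.717). In the phloem list SUC2 had line medians of 7.24 to 16.2 CPM and APL of 2.51 to 3.47 CPM. The r values with the phloem list thus reflect SUC2 more than APL.

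BAK1 had its highest r with the wound and immune genes (0.495 and 0.603) and negative values with phloem (-0.505 and -0.481) and mesophyll (-0.451 and -0.525). The phloem sum was 4.13 to 53.6 CPM in FAMA, 3.10 to 31.4 CPM in SPCH, 6.85 to 50.1 CPM in SRDX-FAMA, 6.41 to 24.2 CPM in SRDX-SPCH and 8.85 to 32.3 CPM in NLS libraries. ER ranged from 3.98 to 33.6 CPM over these libraries. The pairing of a member with its closest list was made after the values were seen, and the part of cell mixture in the ER and SERK2 levels was not tested.

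**Figure D5:**
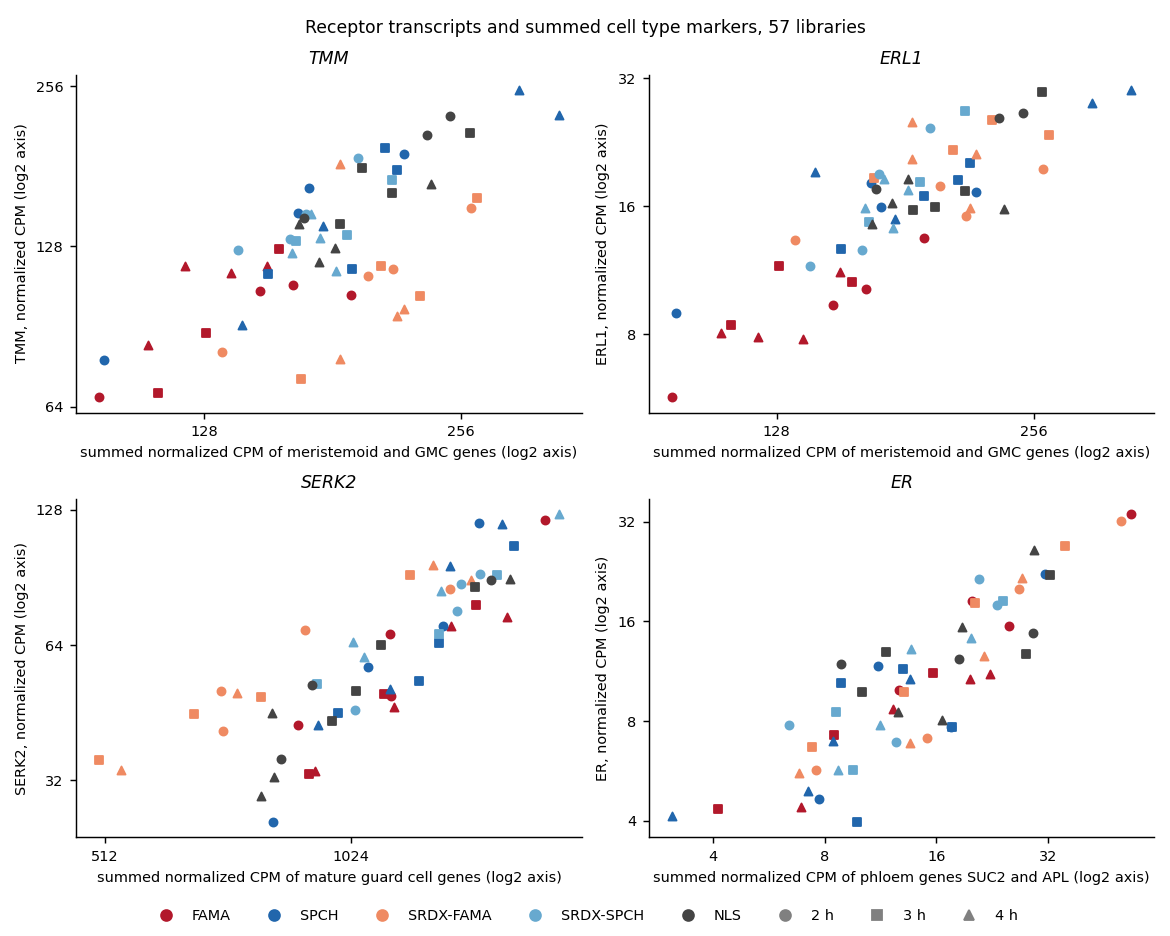
Normalized CPM of TMM, ERL1, SERK2 and ER (vertical axes) against the summed CPM of the marker list with the highest correlation (horizontal axes), both on log2 axes, for 57 libraries coloured by line with the shape giving the hour. ER rises with the phloem genes (r = 0.873), SERK2 with the mature GC genes (0.843) and ERL1 with the meristemoid and GMC genes (0.845) over the 57 libraries.

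Among 25293 genes, the 3 most like TMM over the 57 libraries were UGE2 (r = 0.873), SCRM2 (0.860) and SOL1 (0.843). Those most like ERL1 were AT3G05470 (0.832), AT3G17640 (0.831) and ARK3 (0.826), a kinesin. ER was most like LAX1 (0.956), an auxin carrier, SNG1 (0.949) and DOT3 (0.946), and ERL2 had weaker relations, to MEF18 (0.658), JAR1 (0.643) and AT1G76380 (0.638).

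SERK2 was most like AT1G77020 (0.934), KAT1 (0.933), a GC potassium channel, and AT5G41050 (0.929). SERK1 was most like AT2G26730 (0.832), GAUT9 (0.821) and GAUT7 (0.816), BAK1 like AT3G21650 (0.91), TPP (0.883) and AT1G34220 (0.881), and SERK4 like OPCL1 (0.849), AT1G76360 (0.831) and EMB1290 (0.811). Between members, TMM and ERL1 had an r of 0.637 (0.692 within line and time point), TMM and SERK2 of 0.59 (0.768), ER and SERK4 of 0.549 (0.697) and BAK1 and SERK1 of -0.623.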

How the data were processed

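Cells were sorted as described above, and libraries were made with SMART-Seq chemistry and read as single 50-base reads. Per the study's methods, the authors mapped reads to TAIR10 with STAR and counted them with HTSeq, and the deposited table holds raw counts per gene, unnormalized. Tool versions are not given in the sources used here. Columns were matched to samples by name, except 1 whose name shows only its group (FAMA, 4 h), and 0 were left out.

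Counts were analysed with edgeR 4.0.16 in R 4.3.3 (limma 3.58.1, Python 3.11.15): filterByExpr (minimum count 10), TMM scaling, and the quasi-likelihood test in its legacy form, with line and time point as additive terms over the libraries of the lines compared, time point within a line, or their interaction. P-values were adjusted by the Benjamini-Hochberg method over all genes kept, with a threshold of 0.05. They measure the spread between these samples, which the labels do not tie to separate seedling batches. Correlations between genes used log2 CPM with a prior count of 2, and those with summed lists used log2 of normalized CPM without a prior count. Tested on simulated data for FAMA against NLS (24028 genes), the fit called 95% of genes given a log2 change of 1 and 43% given one of 0.5. Changes were placed only in a sample of genes with higher mean counts, and no time or letter effect was simulated. Of 142 genes called, 4 were unchanged. The rates therefore do not hold for genes of low count or for the other comparisons.

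The members, the lists of related genes and the markers were chosen with earlier results of these data known. The text names the 8 members in every comparison, SERK5, the induced genes, up to 4 genes per list past the test in a comparison, and the 3 genes most correlated with each member. Gene models and promoters came from the TAIR10.1 annotation, in which 27445 of 27655 identifiers matched. Same-numbered libraries did not deviate together (median r of -0.04, 38 of 105 pairs over 0.1), so the numbers were not taken to pair the samples. Libraries sharing the letter that ends their names had a median r of 0.199 (46 of 82 pairs over 0.1). For libraries with different letters it was -0.0358 (124 of 335 pairs over 0.1). The sources used here do not say what the letter marks, and only the letter block fits include it as a term. Alternatives were DESeq2 1.42.0, its size factors in edgeR, other count filters, a replicate block, a block of the letter that ends each library name, 1 fit of all libraries and leaving out each library. Both block fits left out the FAMA 4 h library with no number. Added after seeing the data were edgeR without the legacy setting and a fit without the 2 shallowest libraries. Each comparison held at most 1 of these 2.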

Additional observations from a re-analysis of the deposited data

Results flagged for a closer look

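Within groups of 4 libraries (96 tests), 9 values stood apart from the other 3 by Dixon's test at the 95% level, which chance alone does in about 1 of 20 groups. With FAMA, TMM stood low in 2 h replicate 1 (66.65 CPM, others 103.6 to 108.4) and in the 4 h library with no number (83.53, others 114.2 to 117.5). ERL1 stood high in FAMA 4 h replicate 3 (11.22 CPM, others 7.775 to 8.057) and in NLS 3 h replicate 1 (29.71, others 15.63 to 17.4). ERL2 stood low in FAMA 4 h replicate 2 (25.85 CPM, others 36.24 to 37.78) and high in SPCH 3 h replicate 3 (31.66, others 26.11 to 26.24). SERK1 stood high in SRDX-FAMA 2 h replicate 2 (35 CPM, others 15.53 to 18.46) and in SRDX-SPCH 2 h replicate 3 (19.94, others 14.6 to 15.32), and BAK1 in NLS 3 h replicate 3 (249.8 CPM, others 172.1 to 179.9). No cause was tested. None of the 24 interaction terms passed the adjusted threshold, and they cover FAMA, SPCH and NLS libraries but neither SRDX line.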

How the results depend on the processing

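No direction reversed for a called gene. Across the single-gene tests 985 values under other alternatives kept their side of the threshold, 19 passed only there and 4 were lost there. The count of the 8 members past the test changed as follows, and the cause was not tested. With FAMA against NLS it was 2, and 3 under 5 settings (ERL2 joined). Over all genes the count went from 1808 of 24366 to 2428 with DESeq2 and 2180 of 18477 with at least 10 counts in every library. It was 1743 of 24338 with the replicate block, 2241 with the letter block and 1919 of 25301 in 1 fit. With FAMA against SRDX-FAMA it was 2 members, and 3 with at least 10 counts in every library (BAK1 joined). Over all genes the count there was 3771 of 16752, from 3208 of 24396. With SPCH against NLS it was 1, and 2 with the letter block (ER, -0.91, adjusted p = 0.00142, joined), where the count over all genes went to 3930 of 24611 with that block, from 1684. With SRDX-FAMA against NLS it was 1 (all genes 547 of 24327). It was 2 with DESeq2 (all genes 1087), with at least 10 counts in every library (756 of 16788) and with the letter block (1351). It was also 2 without the legacy setting (622). It was 2 without the 2 shallowest libraries (809 of 24295), of which only the library that went against its label is in this comparison. It was 3 in 1 fit of 57 libraries (964 of 25301). It was 0 with no filter (521 of 27485, ERL2 edgeR adjusted p = 0.0611) and with the replicate block (467, ERL2 edgeR adjusted p = 0.0593). With SRDX-SPCH against NLS it was 1 (all genes 653 of 24480), then 2 with the letter block (1294) and 0 in 1 fit (569 of 25301). With SPCH against SRDX-SPCH it was 0 (all genes 2851 of 24640), and 2 with the letter block (3965). Between 4 h and 2 h in FAMA libraries it was 0 (all genes 0 of 23598). It was 1 with DESeq2 (BAK1, all genes 1007) or the letter block (ER, -1.30, edgeR adjusted p = 0.0212, all genes 340 of 23445). With the replicate block SPCH against FAMA gave 1 in place of 2 (all genes 211 of 24512, from 385 of 24549), where TMM stood at 0.63 (edgeR adjusted p = 0.129). That TMM call was also lost in 14 of 23 fits without 1 library. Leaving out 1 library each gave 2 to 3 members with FAMA against NLS, 1 to 2 with SPCH against NLS, 0 to 2 with SRDX-FAMA against NLS, 0 to 1 with SRDX-SPCH against NLS, 1 to 2 with SPCH against FAMA, 2 with FAMA against SRDX-FAMA and 0 to 1 with SPCH against SRDX-SPCH. The lowest count of any member was 44, for ER in the library labelled SRDX-FAMA 4 h replicate 2. The ER count was at least 103 in FAMA libraries and at least 240 in NLS libraries.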
